A study of Mus musculus with 12 samples.

Results

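The genes described here are 10 genes of glycolysis and of the response to low oxygen, chosen as a named list: *Slc2a1*, *Hk1*, *Hk2*, *Pfkl*, *Pgk1*, *Pkm*, *Ldha*, *Pdk1*, *Car9* and *Bnip3*. Each was found by its gene name in both deposited expression tables, which makes 10 of the 54532 genes listed. The study deleted an enhancer of *Ctnnb1*, the gene that encodes β-catenin, from the mouse germline and asked how the intestinal epithelium and its tumors depend on it. Bulk RNA-seq was run on 12 libraries in 4 groups of 3, and levels are FPKM, a count of fragments scaled to gene length and library depth. Wild-type crypts came from the small intestine of untreated adult mice, and Ctnnb1 Δi.enh crypts from untreated adult mice homozygous for the enhancer deletion, which the labels call ieCtnnb1KO. Apc Min/+ tumors were colon tumors of untreated mice that carry a truncating *Apc* allele, written APCmin/+ in the labels. Ctnnb1 Δi.enh; Apc Min/+ tumors, labelled APCmin/+;ieCtnnb1KO, carry that allele together with the enhancer deletion, so the control tumors have the *Apc* mutation too. The mice had a C57BL/6 background, and those with tumors were 5 months old. Crypts were released from the tissue with EDTA and passed through a filter, whereas tumors were taken as whole tissue. Each library held between 14457896 and 16156712 fragments on genes.

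Glycolysis turns glucose into pyruvate through a chain of enzymes, many of which exist as several isoforms with different tissue distributions. Pyruvate is either reduced to lactate, which leaves the cell with a proton, or taken into mitochondria and oxidised by the pyruvate dehydrogenase complex. When oxygen is short, the HIF transcription factors are no longer degraded and switch on glucose transporters, glycolytic enzymes, a kinase that blocks pyruvate dehydrogenase, and proteins that handle acid or clear mitochondria, and many tumors keep such genes high.

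The comparison of knockout with control asks what the loss of the enhancer does to each tissue, and its target gene was read first. *Ctnnb1* stood at 120.6, 134 and 122.7 FPKM in the wild-type crypts and at 102, 104 and 105 in the Ctnnb1 Δi.enh crypts. In tumors, *Ctnnb1* stood at 299, 363 and 358 FPKM with Apc Min/+ alone and at 279, 248 and 250.2 with the enhancer deletion. With FPKM as deposited, every knockout library lay below every control library of its tissue. Once each library was rescaled to the same FPKM total, the crypt groups overlapped and the tumor groups did not. The log2 difference in *Ctnnb1* was -0.28 in crypts (limma adjusted p = 0.849) and -0.39 in tumors (limma adjusted p = 0.303), with n = 3 in each group, so neither passed an adjusted p of 0.05.

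Before the values, promoter windows are shown for the 6 genes whose knockout and control libraries did not overlap in crypts (*Pgk1*, *Pkm*, *Ldha*) or in tumors (*Hk1*, *Hk2*, *Car9*), because ACGTG is a core string of HIF response elements. The core also occurs as GCGTG, which was not searched. RefSeq promoter windows on GRCm38.p6 were matched by symbol for 10 of 10 genes and gave 14 windows of 250 bases before a transcription start. ACGTG or its reverse complement CACGT was found in 7 of the 14 windows, which belong to 7 genes, and in 16.6% of all 32851 windows of the same length. *Hk1*, *Pfkl* and *Pdk1* had neither string in their windows. Over all 27025 genes, 18.5% had a match in any of their windows. At least 2 matches were found in the *Pgk1*, *Hk2* and *Bnip3* windows and in *Ldha* window 1, and in 6.81% of all windows. A single CACGTG counts as 2 matches, and both matches of *Bnip3* come from such a string. Capitals mark the matches, and CACGTG holds both strings in overlap. All windows of these genes are given. Those on the plus strand lie at chrX:106186850-106187099 for *Pgk1*, chr9:59656326-59656575 and chr9:59656977-59657226 for *Pkm*, chr7:46845554-46845803 and chr7:46846832-46847081 for *Ldha*, and chr4:43506776-43507025 for *Car9*. Those on the minus strand lie at chr10:62379909-62380158 and chr10:62340422-62340671 for *Hk1* and chr6:82774455-82774704 for *Hk2*.
Pgk1: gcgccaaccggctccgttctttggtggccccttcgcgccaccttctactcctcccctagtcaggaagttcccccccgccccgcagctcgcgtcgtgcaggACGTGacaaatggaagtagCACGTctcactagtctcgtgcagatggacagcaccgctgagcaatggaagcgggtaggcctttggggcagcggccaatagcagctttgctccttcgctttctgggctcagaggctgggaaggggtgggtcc
Pkm window 1: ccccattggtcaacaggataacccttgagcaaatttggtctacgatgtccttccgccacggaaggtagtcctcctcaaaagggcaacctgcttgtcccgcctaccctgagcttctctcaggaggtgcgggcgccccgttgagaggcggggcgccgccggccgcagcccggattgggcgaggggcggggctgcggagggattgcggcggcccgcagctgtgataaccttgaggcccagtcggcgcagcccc
Pkm window 2: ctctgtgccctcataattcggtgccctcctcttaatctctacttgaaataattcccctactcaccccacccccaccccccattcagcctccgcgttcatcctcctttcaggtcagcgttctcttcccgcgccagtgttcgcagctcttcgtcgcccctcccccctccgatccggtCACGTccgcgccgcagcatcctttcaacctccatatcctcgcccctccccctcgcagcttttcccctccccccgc
Ldha window 1: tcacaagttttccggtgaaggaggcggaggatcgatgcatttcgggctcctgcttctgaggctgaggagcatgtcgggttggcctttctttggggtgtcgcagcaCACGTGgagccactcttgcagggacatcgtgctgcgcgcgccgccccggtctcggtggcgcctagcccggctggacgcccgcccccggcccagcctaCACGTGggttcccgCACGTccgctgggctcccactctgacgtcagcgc
Ldha window 2: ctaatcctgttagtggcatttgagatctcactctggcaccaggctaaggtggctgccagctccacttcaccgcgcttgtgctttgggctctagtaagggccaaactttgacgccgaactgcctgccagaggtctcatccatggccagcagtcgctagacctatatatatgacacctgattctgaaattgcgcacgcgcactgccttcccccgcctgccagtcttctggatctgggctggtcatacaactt
Hk1 window 1: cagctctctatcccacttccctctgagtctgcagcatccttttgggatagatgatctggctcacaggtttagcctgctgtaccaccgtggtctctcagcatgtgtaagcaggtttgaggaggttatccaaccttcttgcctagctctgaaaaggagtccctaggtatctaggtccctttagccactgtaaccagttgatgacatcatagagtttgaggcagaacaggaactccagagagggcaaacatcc
Hk1 window 2: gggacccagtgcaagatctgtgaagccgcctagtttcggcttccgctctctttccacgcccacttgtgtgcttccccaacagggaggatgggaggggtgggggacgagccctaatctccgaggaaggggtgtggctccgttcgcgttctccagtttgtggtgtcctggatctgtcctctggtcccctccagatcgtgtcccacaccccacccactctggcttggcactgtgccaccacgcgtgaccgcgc
Hk2: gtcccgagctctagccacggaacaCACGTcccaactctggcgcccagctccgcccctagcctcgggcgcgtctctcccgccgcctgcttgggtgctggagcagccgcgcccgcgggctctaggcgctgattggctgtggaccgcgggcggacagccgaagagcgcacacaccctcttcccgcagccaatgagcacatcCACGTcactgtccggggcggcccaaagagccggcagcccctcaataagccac
Car9: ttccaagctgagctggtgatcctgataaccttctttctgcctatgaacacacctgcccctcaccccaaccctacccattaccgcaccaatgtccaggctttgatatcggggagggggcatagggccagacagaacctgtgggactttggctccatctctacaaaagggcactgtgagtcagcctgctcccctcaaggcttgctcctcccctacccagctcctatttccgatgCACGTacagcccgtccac
The matches begin 145, 144, 48, 47 and 34 bases before the start in *Ldha* window 1, 150 and 131 bases before it in *Pgk1*, 75 bases in *Pkm* window 2, 226 and 52 bases in *Hk2* and 18 bases in *Car9*. *Ldha* window 2, *Pkm* window 1 and both *Hk1* windows had none. Among the genes not printed, matches began 36 bases before the start of *Slc2a1* and 108 and 107 bases before that of *Bnip3*. A match describes letters only, and binding at these places was not tested.

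In crypts, *Pgk1*, *Pkm* and *Ldha* lay higher in all Ctnnb1 Δi.enh libraries than in all wild-type libraries, by ratios of means from 1.32 to 1.37. *Car9* had a ratio of 1.42 with overlap, and *Hk2* was the member with the lowest ratio, 0.739. None of the 10 passed limma's adjusted p of 0.05.

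*Slc2a1*, which encodes the glucose transporter GLUT1, was at 5.86, 8.41 and 5.49 FPKM in the wild-type crypts and at 5.62, 6.96 and 6.07 in the knockout crypts. *Hk1*, a hexokinase that traps glucose by phosphorylation, was at 1.44, 1.79 and 2.27 FPKM against 1.92, 1.71 and 1.96. Both genes overlapped fully between groups, and the sign of their small differences turned with the processing. *Hk2*, the inducible hexokinase, was at 20.45, 17.5 and 12.9 FPKM in the wild-type crypts and at 9.34, 16.7 and 11.4 in the knockout crypts. Knockout libraries 1 and 3 lay below every control, and knockout library 2 lay between controls 2 and 3. The *Hk2* log2 difference was -0.44 with a 95% confidence interval from -1.03 to 0.15 (limma adjusted p = 0.881), and it ranged from -0.66 to -0.26 when single libraries were left out. *Pfkl*, the liver-type phosphofructokinase that commits sugar to glycolysis, was at 5.28, 4.85 and 5.73 FPKM against 5.24, 5.84 and 5.70, again with overlap.

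*Pgk1*, whose enzyme makes the first ATP of the pathway, was at 98.5, 85.2 and 92.7 FPKM in the wild-type crypts and at 122, 126 and 129 in the knockout crypts. The 3 knockout values sat close together, above the highest control. Means were 92.1 ± 6.69 and 126 ± 3.60 FPKM (SD, n = 3), the log2 difference was 0.45 with a standard error of 0.12, and the limma adjusted p was 0.757. *Pkm*, pyruvate kinase, was at 86.8, 76.7 and 108 FPKM against 122, 115 and 129.8, so that control library 3 came nearest to the knockout range without entering it. Its log2 difference was 0.44 with a standard error of 0.16 (limma adjusted p = 0.806). Gene-level values do not separate its M1 and M2 splice forms. *Ldha*, the subunit of lactate dehydrogenase that favours lactate formation, was at 285, 258 and 284 FPKM against 346, 357 and 386. It was the most abundant of the 10 genes in all crypt libraries, and its groups did not overlap. The *Ldha* means were 276 ± 15.4 and 363 ± 20.504 FPKM (SD, n = 3), with a log2 difference of 0.40, a standard error of 0.14 and a limma adjusted p of 0.806. Without single libraries the differences ranged from 0.39 to 0.50 for *Pgk1*, from 0.33 to 0.58 for *Pkm* and from 0.35 to 0.43 for *Ldha*. For each of these 3 genes the exact two-sided permutation p was 0.1, the smallest that 3 against 3 libraries can give.

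*Pdk1*, the kinase that switches off pyruvate dehydrogenase, was at 7.36, 8.37 and 4.79 FPKM in the wild-type crypts and at 9.43, 7.08 and 7.54 in the knockout crypts. Only knockout library 1 lay above every control, and the log2 difference of 0.24 ranged from 0.02 to 0.39 without single libraries. *Car9*, a carbonic anhydrase at the cell surface and a classical HIF target, was at 34.1, 22.6 and 17.4 FPKM against 35.1, 41.9 and 28.4. Control library 1 reached into the knockout range and the other controls lay below it. The *Car9* log2 difference was 0.53 with a 95% confidence interval from -0.08 to 1.15 (limma adjusted p = 0.860), and it was 0.31 without control library 3, below *Pkm* at 0.58, *Pgk1* at 0.46 and *Ldha* at 0.42. *Bnip3*, a mitophagy receptor, was at 2.08, 2.63 and 4.45 FPKM against 3.66, 2.27 and 4.68, with overlap.

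**Figure D1:**
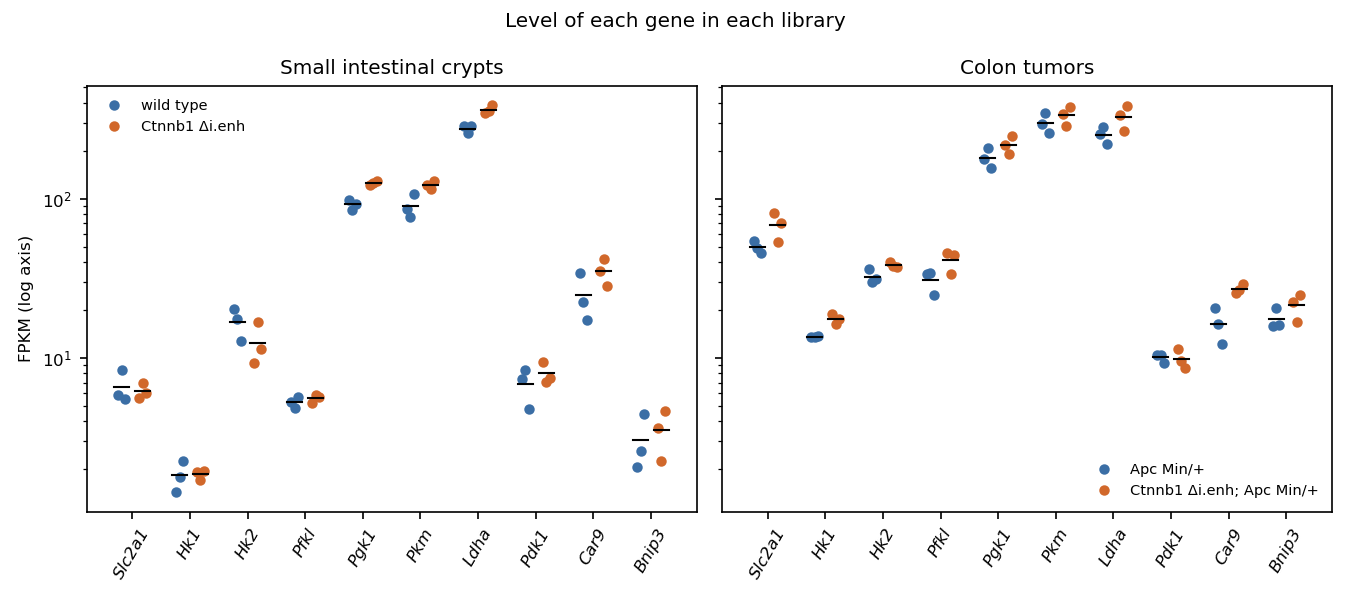
Each point is the FPKM of a gene in a library on a log axis, with bars at the means of 3 libraries, for crypts on the left and tumors on the right. In crypts the knockout points of *Pgk1*, *Pkm* and *Ldha* lie above all control points, and in tumors those of *Hk1*, *Hk2* and *Car9* do.

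Across the crypts, 14176 genes had a mean of at least 0.5 FPKM and were tested with limma, all 10 members among them. At an adjusted p under 0.05, 0 genes (0%) were called, and no gene came below 0.728. Before adjustment 829 genes (5.85%) had a p under 0.05, with 494 higher (3.48%) and 335 lower (2.36%) in the knockout, and a voom fit on recovered fragments gave 0 calls and 805 genes at an unadjusted p under 0.05. The balance of directions turned with the scaling, with 737 higher and 156 lower after rescaling to the same total and 284 higher and 509 lower without the 50 highest genes. Among the 10 members, 3 had an unadjusted p under 0.05, all of them higher in the knockout, and they were the same 3 that did not overlap. That count was 1 with quantile normalization and 1 without control library 2, without knockout library 1 or without knockout library 3. Knockout libraries lay wholly above the controls for 3 members, as for 6.79% of tested genes, and wholly below for 0 members, against 5.15%. The log2 difference was above 0 for 8 members, as for 52.8% of tested genes. The median of the 10 was 0.22, beside a median of 0.01 over all tested genes. When libraries were rescaled to the same total, the median of all genes moved to 0.14 and that of the members to 0.35, so the distance between them was 0.20 in both scalings. It was 0.11 without knockout library 1 and 0.35 without knockout library 2.

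The control crypts differed among themselves. Stomach markers, of which 11 of 12 were listed, summed to 207, 122 and 15.9 FPKM in the wild-type crypts and to 12.8, 19.7 and 10.1 in the knockout crypts. *Tff2* was the most abundant, at 122, 53.6 and 1.09 FPKM against 0.105, 3.37 and 0.122, and *Gkn1* and *Gkn2* were at 0 in control library 3 and in all knockout libraries. Without control library 3, which leaves the controls rich in stomach markers, limma called 3 genes, *Pgc*, *Gkn2* and *Gkn1*, all stomach markers and all lower in the knockout. Enterocyte markers, all 10 listed and led by *Fabp2*, summed to 4177, 6374 and 10984 FPKM in the controls and to 8645, 6386 and 9967 in the knockouts. Paneth cell markers, all 7 listed and led by *Defa24*, summed to 22878, 33726 and 63604 FPKM against 25221, 22271 and 25256, and no marker of either list was at 0 in all crypts. Mitochondrial genes held from 20.6 to 34.2% of the FPKM of a crypt library. The part of these lists in the values of the 10 genes was not tested. Leaving out both control libraries 1 and 2 was a choice made after the data were seen, and it left control library 3 as the only control. That library had the highest enterocyte and Paneth sums of all crypts. The log2 difference was then 0.44 for *Pgk1*, 0.35 for *Ldha*, 0.18 for *Pkm* and 0.97 for *Car9*. The median of the 10 was 0.17. Under that choice *Hk2* stood at -0.08 and *Pdk1* at 0.68, *Slc2a1* turned to 0.16, and *Hk1*, *Pfkl* and *Bnip3* turned to -0.23, -0.03 and -0.34. In bulk tissue, fewer cells of a type and less RNA per cell cannot be told apart.

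In tumors, other members separated the groups with FPKM as deposited, among them both hexokinases. *Hk1*, *Hk2* and *Car9* were higher in all Ctnnb1 Δi.enh; Apc Min/+ tumors than in all Apc Min/+ tumors, by ratios of means of 1.29, 1.19 and 1.67. With libraries rescaled to the same total the *Hk2* groups overlapped. *Slc2a1* and *Pfkl* were higher by ratios of 1.38 and 1.34, each with a single knockout library inside the control range. *Pkm* and *Pdk1* had the ratios nearest to 1, at 1.12 and 0.982. None of the 10 passed limma's adjusted p of 0.05.

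*Slc2a1* was at 54.0, 49.2 and 45.6 FPKM in the Apc Min/+ tumors and at 81.4, 53.7 and 70.4 in the knockout tumors. Knockout library 2 lay just under the highest control, and the other knockout libraries were above all controls. The log2 difference was 0.44 with a standard error of 0.16 (limma adjusted p = 0.320), and it ran from 0.31 without knockout library 1 to 0.61 without knockout library 2. *Hk1* was at 13.6, 13.6 and 13.7 FPKM in the control tumors, a very narrow range, and at 18.8, 16.3 and 17.7 in the knockout tumors. Its means were 13.6 ± 0.0527 and 17.6 ± 1.29 FPKM (SD, n = 3), with a log2 difference of 0.36, a standard error of 0.08 and a limma adjusted p of 0.269. *Hk2* was at 36.1, 29.9 and 31.1 FPKM against 40.0, 37.9 and 37.3, with no overlap and a narrow gap. The *Hk2* log2 difference was 0.25 with a standard error of 0.10 (limma adjusted p = 0.330). It was 0.14 with libraries rescaled to the same total and 0.13 with quantile normalization. *Pfkl* was at 33.5, 34.2 and 24.7 FPKM against 45.7, 33.7 and 44.0, where knockout library 2 again lay within the controls. The *Pfkl* log2 difference was 0.41 with a standard error of 0.17 (limma adjusted p = 0.341), with a range from 0.27 to 0.55 when single libraries were left out.

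Farther down the chain, *Pgk1* was at 177, 207 and 157 FPKM in the control tumors and at 218, 189.5 and 248 in the knockout tumors. *Pkm* was at 295, 343 and 259 FPKM against 340.9, 284 and 377, and *Ldha* at 257, 283 and 219 FPKM against 336, 266 and 382. In all 3 genes, knockout library 2 was the lowest knockout library and lay inside the control range, and control library 2 was the highest control. The log2 differences were 0.28 for *Pgk1*, 0.16 for *Pkm* and 0.37 for *Ldha*, with limma adjusted p of 0.432, 0.663 and 0.384. Without single libraries they ranged from 0.18 to 0.38 for *Pgk1*, from 0.06 to 0.27 for *Pkm* and from 0.25 to 0.51 for *Ldha*. Quantile normalization turned the *Pkm* difference to -0.03 and lowered those of *Pgk1* and *Ldha* to 0.06 and 0.17. With libraries rescaled to the same total the differences were 0.17 for *Pgk1*, 0.05 for *Pkm* and 0.26 for *Ldha*.

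*Pdk1* was at 10.5, 10.5 and 9.28 FPKM in the control tumors and at 11.4, 9.60 and 8.67 in the knockout tumors. The groups overlapped, with a log2 difference of -0.03 (limma adjusted p = 0.922). *Car9* was at 20.6, 16.3 and 12.2 FPKM against 25.7, 26.8 and 29.3, so every knockout tumor lay above every control, and the controls spread more widely. Its means were 16.4 ± 4.17 and 27.3 ± 1.83 FPKM (SD, n = 3). The *Car9* log2 difference of 0.75, with a standard error of 0.18 and a 95% confidence interval from 0.31 to 1.18, was the highest of the 10 genes (limma adjusted p = 0.269). *Bnip3* was at 15.9, 20.7 and 16.1 FPKM against 22.4, 16.7 and 24.9, with knockout library 2 again within the controls and a log2 difference of 0.27 (limma adjusted p = 0.487), which ranged from 0.15 to 0.43 without single libraries. Without single libraries the difference ranged from 0.31 to 0.41 for *Hk1*, from 0.19 to 0.33 for *Hk2* and from 0.56 to 0.92 for *Car9*. For *Hk1*, *Hk2* and *Car9* the exact two-sided permutation p was 0.1.

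**Figure D2:**
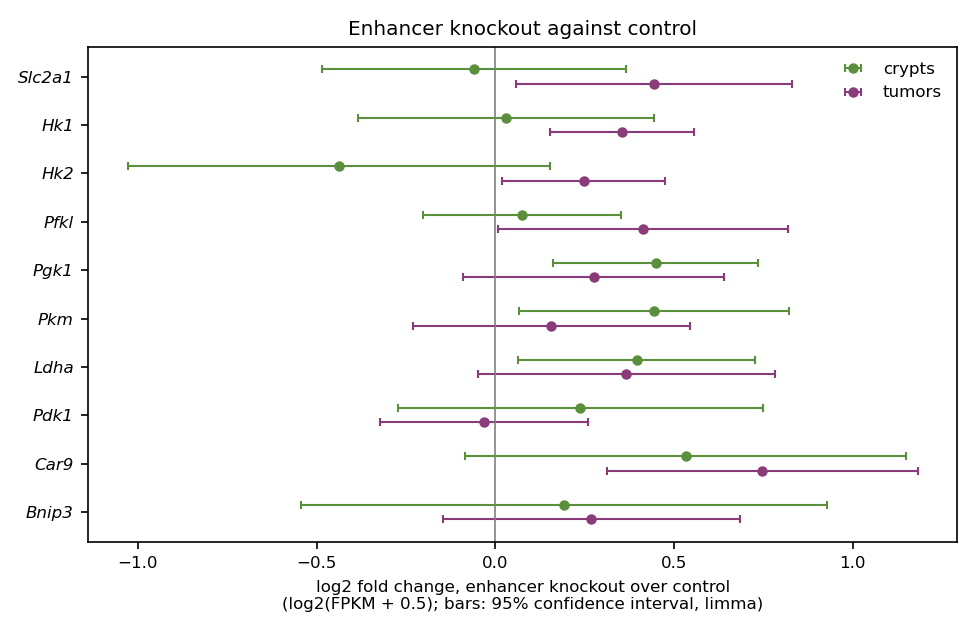
Points are log2 fold changes of knockout over control on log2(FPKM + 0.5), with limma's 95% confidence intervals, for crypts in green and tumors in purple. With all libraries *Car9* lies highest, at 0.53 in crypts and 0.75 in tumors, and *Hk2* in crypts lowest, at -0.44, while without single libraries *Car9* in crypts runs from 0.31 to 0.79 and *Hk2* from -0.66 to -0.26.

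Of 16743 genes tested in tumors, all 10 members included, 0 (0%) reached an adjusted p under 0.05 with limma, where the smallest value was 0.269. Before adjustment 2421 genes (14.5%) had a p under 0.05, with 1417 higher (8.46%) and 1004 lower (6%) in the knockout, and voom gave 0 calls and 2541 such genes. Among the members, 5 had an unadjusted p under 0.05, namely *Slc2a1*, *Hk1*, *Hk2*, *Pfkl* and *Car9*, all higher in the knockout, and voom put 6 there. That count depended on the scaling: with libraries rescaled to the same total it was 2, *Hk1* and *Car9*, while over all genes 729 were then higher and 1791 lower. It was also 2 without control library 3, without knockout library 1 or without knockout library 3. Knockout libraries lay wholly above the controls for 3 members, as for 11.4% of tested genes, and wholly below for 0 members, against 10.6%. The log2 difference was above 0 for 9 members, as for 51.3% of genes, with a median of 0.32 beside 0.01 over all genes. All knockout libraries lay above all controls in both tissues for 148 of the 13370 genes tested in both (1.11%) and for 0 of the 10 members. Whether a member's difference itself differed between tissues was not tested.

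Marker sums of some cell types lay apart between the tumor groups and others overlapped. No marker passed limma's adjusted p of 0.05. Goblet cell markers, all 7 listed and led by *Spink4*, summed to 1407, 1420 and 1455 FPKM in the control tumors and to 2689, 3222 and 2848 in the knockout tumors. In this list 7 of 7 lay wholly above the controls, beside 11.4% of all tested tumor genes. The same 7 were higher at limma's unadjusted p under 0.05, beside 8.46% of all tested tumor genes. Epithelial markers, all 7 listed and led by *Krt8*, summed to 4172, 4206 and 3656 FPKM against 4931, 4798 and 5085. Again 7 of 7 lay wholly above the controls, but only 2 were higher at an unadjusted p under 0.05, beside the same shares of all genes. Fibroblast markers, 6 of 6 listed and led by *Col1a1*, summed to 345, 216 and 208 FPKM against 346, 452 and 358. Neutrophil markers, 5 of 5 listed and led by *S100a9*, summed to 230, 446 and 339 FPKM against 214, 123.4 and 217. Endothelial markers, 5 of 5 listed and led by *Cdh5*, summed to 32.5, 30.7 and 27.4 FPKM against 35.1, 33.8 and 32.7. Stomach markers, led here by *Gkn3*, summed to 34.8, 29.9 and 29.3 FPKM against 20.6, 22.8 and 13.4. Red cell markers, 5 of 5 listed and led by *Hbb-bs*, summed to 328, 346 and 246 FPKM against 680, 52.9 and 1115, with overlap. Knockout library 2, which was low for *Slc2a1*, *Pfkl*, *Pgk1*, *Pkm*, *Ldha* and *Bnip3*, was also the library with the lowest red cell sum. Proliferation markers, 6 of 6 listed and led by *Pcna*, summed to 170.5, 173 and 148 FPKM against 179, 141 and 181, also with overlap and with knockout library 2 lowest there too. No marker of these lists was at 0 in all tumors, and their part in the result was not tested. *Xist*, expressed from the inactive X of female cells, was at 114 and 61.4 FPKM in library 3 of the control and knockout tumors and at most 0.0623 in the other tumors, so each tumor group held 1 such library.

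The wider pathway was read from lists that also hold the 10 members, and these lists were chosen with earlier results of these data known. Their counts are therefore not independent of the values above, and the shares over all genes stand beside them as description only. None of the listed genes tested in either tissue passed limma's adjusted p of 0.05. The 34 glycolytic enzymes, of which 6 are members, had 27 tested in crypts. At an unadjusted p under 0.05, 8 were higher and 0 lower in the knockout, 8 lay wholly above the controls and 0 wholly below, and the median log2 difference was 0.13. The members *Pgk1*, *Pkm* and *Ldha* are 3 of the 8 in each count, and over all tested crypt genes 3.48% were higher, 2.36% lower, 6.79% wholly above and 5.15% wholly below. *Eno1*, enolase, was at 87.8, 81.8 and 75.0 FPKM in the wild-type crypts and at 125, 108 and 147 in the knockout crypts. *Gpi1*, which converts glucose 6-phosphate to fructose 6-phosphate, was at 47.6, 43.9 and 45.1 FPKM against 61.4, 57.8 and 57.9. Neither gene overlapped, with log2 differences of 0.63 and 0.37 and limma adjusted p of 0.743 and 0.797, and *Tpi1*, *Aldoa* and *Pgam1* did not overlap either, each with a log2 difference of 0.37. In tumors 29 of the enzymes were tested, with 7 higher and 1 lower before adjustment of p, 7 wholly above and 2 wholly below, and a median of 0.28. *Hk1* and *Hk2* are in both counts of 7 and *Pfkl* in the first, and over all tested tumor genes 8.46% were higher, 6% lower, 11.4% wholly above and 10.6% wholly below. *Pfkp*, the platelet-type phosphofructokinase, was at 9.38, 10.1 and 8.96 FPKM in the control tumors and at 12.9, 11.9 and 13.4 in the knockout tumors (log2 difference 0.41, limma adjusted p = 0.269). *Eno3* had a log2 difference of 0.54 and *Gapdhs* one of -0.39, both without overlap.

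Of 15 carriers of glucose and lactate, 10 were tested in crypts, and at an unadjusted p under 0.05 they gave 0 higher and 1 lower, beside 3.48% and 2.36% of all tested genes, with a median of 0.25. That gene was *Slc16a8*, a lactate carrier of low abundance, at 0.681, 0.690 and 1.18 FPKM in the wild-type crypts and 0.297, 0.446 and 0.407 in the knockout crypts, without overlap. *Slc5a1*, the sodium-driven glucose importer SGLT1, was the most abundant carrier in crypts, at 381, 395 and 530 FPKM against 472, 391 and 778, with overlap. In tumors 11 carriers were tested, 3 were higher, the member *Slc2a1* among them, and 0 lower, beside 8.46% and 6% of all tested genes, and the median was 0.20. The others were *Slc16a1*, the lactate carrier MCT1, with a log2 difference of 0.35, and *Slc2a10* with 0.67. *Bsg*, basigin, which brings MCT1 to the membrane, was at 417, 347 and 350.0 FPKM in the control tumors and at 427, 431 and 534 in the knockout tumors, with no overlap.

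Genes for pyruvate entry into mitochondria, 13 of 13 tested in each tissue, had a median of 0.23 in crypts and -0.06 in tumors. At an unadjusted p under 0.05, 2 were higher and 1 lower in crypts, beside 3.48% and 2.36% of all tested genes. *Mpc1*, a subunit of the mitochondrial pyruvate carrier, was at 5.49, 5.97 and 7.17 FPKM against 9.18, 7.71 and 9.64, *Dld* had a log2 difference of 0.34, and *Pdp1*, a phosphatase that reactivates pyruvate dehydrogenase, one of -0.44. None of these 3 overlapped between groups. In tumors 1 was higher, *Mpc2* with 0.34, and 1 lower, beside 8.46% and 6% of all tested genes. That was *Pdk4*, a relative of *Pdk1*, at 4.35, 8.77 and 10.1 FPKM against 3.33, 4.63 and 2.74, where control library 1 lay inside the knockout range. *Pdha1*, the most abundant of the list in both tissues, had log2 differences of 0.22 in crypts and 0.02 in tumors. Gluconeogenesis genes had medians of 0.28 in crypts, with 8 tested and 1 higher, *Slc37a4* with 0.50, and of 0.06 in tumors, with 7 tested and 2 higher, *Fbp2* with 0.37 and *Pcx* with 0.34. None was lower at an unadjusted p under 0.05 in either tissue, and the shares of all tested genes are those just given.

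Of the HIF factors and oxygen sensors 8 of 10 were tested in crypts, 0 had an unadjusted p under 0.05 in the limma fit, beside 5.85% of all tested genes, and the median was 0.07. *Hif1a*, the inducible HIF subunit, was at 15.2, 11.9 and 9.90 FPKM in the wild-type crypts and at 12.1, 13.0 and 18.3 in the knockout crypts, and *Egln2* was the most abundant of the list there, with a log2 difference of 0.17. In tumors *Hif1a* was at 37.4, 33.6 and 38.1 FPKM against 36.8, 36.9 and 31.7. The *Hif1a* groups overlapped in both tissues. Of 10 tested in tumors, 2 were higher and 1 lower, beside 8.46% and 6% of all tested genes, with a median of 0.12. The higher ones were *Epas1*, which encodes HIF-2α, with a log2 difference of 0.37, and *Egln1*, a prolyl hydroxylase that marks HIF for degradation, with 0.24, and *Arnt2* was lower with -0.45. *Egln3*, the most abundant of the list in tumors and itself a HIF target, was at 51.3, 62.5 and 45.4 FPKM against 67.7, 62.9 and 64.1, without overlap.

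Hypoxia targets outside glycolysis gave different counts in crypts and tumors, and that difference was not tested. In crypts 16 of 23 were tested, and at an unadjusted p under 0.05 there were 0 higher and 1 lower, beside 3.48% and 2.36% of all tested genes, and the median was 0.09. The lower one was *Car12*, a membrane carbonic anhydrase, at 4.005, 3.18 and 3.34 FPKM in the wild-type crypts and at 2.80, 2.61 and 2.16 in the knockout crypts. In tumors all 23 were tested, 10 were higher and 0 lower, 10 lay wholly above the controls and 1 wholly below, and the median was 0.30. Over all tested genes 8.46% were higher, 11.4% wholly above and 10.6% wholly below, and of the members *Car9* is among the 10 while *Bnip3* and *Pdk1*, also on the list, are not. *P4ha1*, a collagen prolyl hydroxylase subunit, was at 7.96, 8.68 and 7.31 FPKM in the control tumors and at 12.6, 13.6 and 18.8 in the knockout tumors, clear of the controls in each library. Its log2 difference was 0.85 with a standard error of 0.16 (limma adjusted p = 0.269). *Ak4*, a mitochondrial adenylate kinase, was at 2.95, 3.39 and 1.77 FPKM against 4.24, 6.27 and 5.99, with a log2 difference of 0.92 (limma adjusted p = 0.269). Besides *Car9*, the higher ones included *P4ha2*, *Plod2*, *Adm*, *Stc2*, *Higd1a* and *Ero1l*, with log2 differences from 0.36 to 0.61. *Ddit4*, the most abundant target in tumors, was at 184, 204 and 162 FPKM against 222, 183 and 241, with overlap. *Vegfa*, read after its values were seen, was at 31.0, 34.9 and 28.2 FPKM against 45.3, 30.5 and 45.0, and knockout library 2 was again inside the control range. *P4ha1*, *P4ha2* and *Plod2* modify collagen, and the fibroblast sums given above were also higher in the knockout tumors, with a part in these values that was not tested.

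Among the 16 carbonic anhydrases, 6 were tested in crypts and 9 in tumors, with medians of 0.25 and 0.35. *Car4* was the most abundant in crypts, at 63.6, 45.3 and 39.0 FPKM with the enhancer intact and 82.0, 85.0 and 109.9 without it. All knockout values lay above the controls (log2 difference 0.92, limma adjusted p = 0.728), and at an unadjusted p under 0.05 the list had 1 gene higher, this one, and 1 lower, *Car12*, beside 3.48% and 2.36% of all tested genes. In tumors *Car9* and *Car1* were higher, which makes 2 higher and 0 lower, beside 8.46% and 6% of all tested genes. *Car1*, a colonocyte enzyme, was at 67.4, 46.7 and 65.9 FPKM against 78.3, 201 and 114 and was the most abundant there. Colonocyte markers, all 8 listed, were led by *Car4* in crypts and summed there to 162, 170 and 154 FPKM against 185, 174 and 223. They were led by *Car1* in tumors and summed to 116, 103 and 116 FPKM against 137, 294 and 178.

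**Figure D3:**
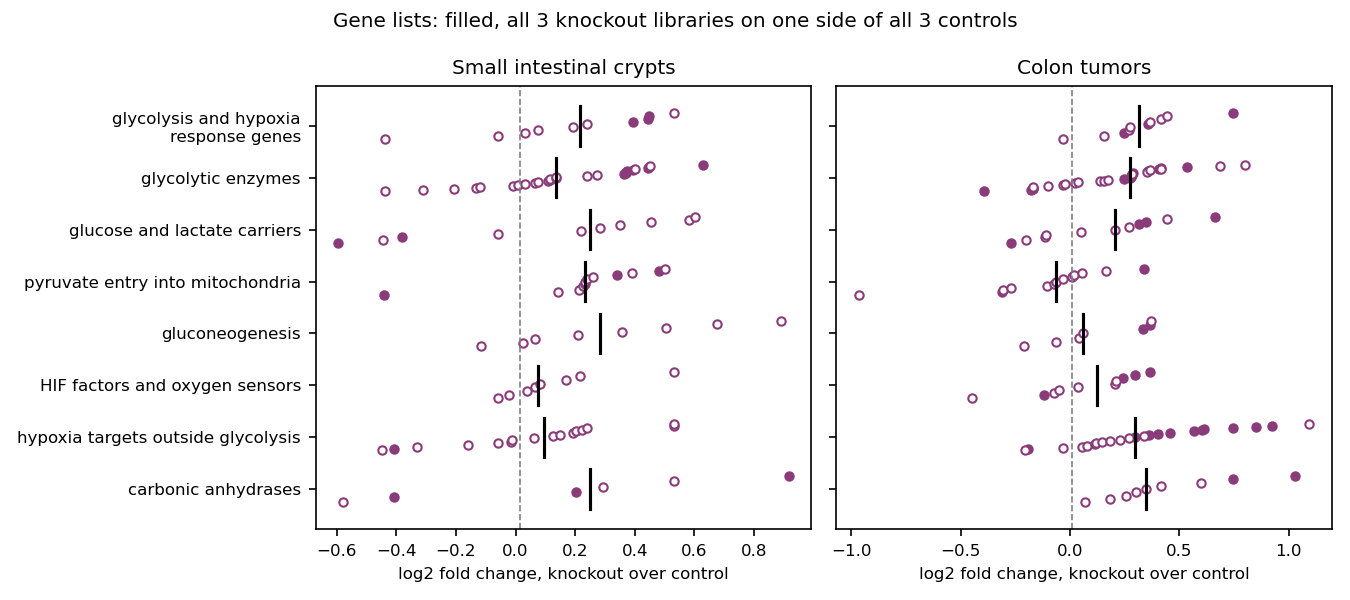
Each point is the log2 fold change of a tested gene, knockout over control, by list, with filled points where all 3 knockout libraries lie on the same side of all 3 controls, bars at list medians and a dashed line at the median of all tested genes. The members' bar lies at 0.22 in crypts and 0.32 in tumors, and hypoxia targets outside glycolysis lie at 0.09 and 0.30.

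Levels in tumors and crypts were set side by side with each library rescaled to the same sum, in ppm of its FPKM total. Tissue, gut region, *Apc* genotype and dissection differ together between these groups and cannot be told apart, and the tables were normalized separately, so this is a description without a test. *Slc2a1*, *Hk1*, *Pfkl* and *Bnip3* were the members with the largest distance. *Slc2a1* was at 14.6, 16.9 and 10.4 ppm in the wild-type crypts and at 177, 163 and 155 in the Apc Min/+ tumors. *Hk1* was at 3.58, 3.60 and 4.29 ppm against 44.4, 45.1 and 46.6. The ratio of means was 11.8 for *Slc2a1*, 11.9 for *Hk1*, 9.12 for *Pfkl* and 9.30 for *Bnip3*, and with FPKM as deposited it was 7.53, 7.42, 5.83 and 5.74. Ratios were lower for *Pkm* at 5.21, *Pgk1* at 3.05, *Hk2* at 2.93 and *Pdk1* at 2.28. *Ldha* was at 709, 518 and 537 ppm in the crypts and at 840.0, 938 and 746 in the tumors, a ratio of 1.43. *Car9* was at 85.0, 45.4 and 32.9 ppm against 67.3, 54.2 and 41.7, so crypt library 1 was the highest of all and the ratio was 0.999.

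By these levels 8 of the 10 lay wholly above the crypts and at least 2-fold higher, as did 56.8% of the 19168 genes with a level of at least 1 in either group, and 0 lay as far below, against 5.56%. In the knockout groups 7 did, against 46.5% of 18665 genes, and 0 lay as far below, against 6.38%. There the ratios were 14.4 for *Slc2a1*, 12.5 for *Hk1*, 9.67 for *Pfkl*, 8.01 for *Bnip3*, 4.03 for *Hk2*, 3.59 for *Pkm* and 2.28 for *Pgk1*, and *Pdk1* at 1.63, *Ldha* at 1.19 and *Car9* at 1.01 did not reach 2-fold. The scaling carries much of the count, since the median log2 ratio of 13820 genes present in both control groups was 1.07 after rescaling and 0.43 with FPKM as deposited. With FPKM as deposited the count in the controls was 5, namely *Slc2a1*, *Hk1*, *Pfkl*, *Pkm* and *Bnip3*, beside 32.9% of the same 19168 genes, and the *Ldha* log2 ratio turned to -0.12. The *Car9* ratio was then 0.662, and 0.608 without the 50 highest genes of either table, or 0.777 and 0.70004 between the knockout groups. In both scalings 8 members lay above the median of all genes, with member medians of 1.99 and 1.35. Between the knockout groups the median over 13687 genes was 0.81 after rescaling, and 7 members lay above it. Mitochondrial genes held from 3.54 to 5.88% of FPKM in tumors, far below the crypts. Fibroblast markers summed to between 1.73 and 5.92 FPKM in crypts, far below the tumor sums given above, and *S100a8* of the neutrophil list was at 0 in all crypts. The part of these cells in the member levels was not tested.

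The order of the levels also differed between the tissues. By mean FPKM the wild-type crypts ranked *Ldha* first at 276, followed by *Pgk1* at 92.1 and *Pkm* at 90.4, whose values overlapped, and then *Car9* at 24.7 and *Hk2* at 16.9, which overlapped as well. The lowest were *Pdk1* at 6.84, *Slc2a1* at 6.59 and *Pfkl* at 5.29, not separated by their spread, followed by *Bnip3* at 3.05 and *Hk1* at 1.83, which overlapped. In the Apc Min/+ tumors *Pkm* came first at 299 with *Ldha* at 253, whose ranges overlapped, followed by *Pgk1* at 180.4 and *Slc2a1* at 49.6. *Hk2* at 32.4 and *Pfkl* at 30.8 overlapped. *Car9* at 16.4 overlapped both *Bnip3* at 17.5 and *Hk1* at 13.6, and *Pdk1* at 10.1 stood below *Hk1*. The knockout crypts had the same order as the wild-type crypts, and the knockout tumors differed from the control tumors in that *Pfkl*, at 41.2, came before *Hk2*, at 38.4, and *Car9*, at 27.3, before *Bnip3*, at 21.4. *Pfkl* and *Hk2* overlapped there, whereas every *Car9* value lay above every *Bnip3* value.

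**Figure D4:**
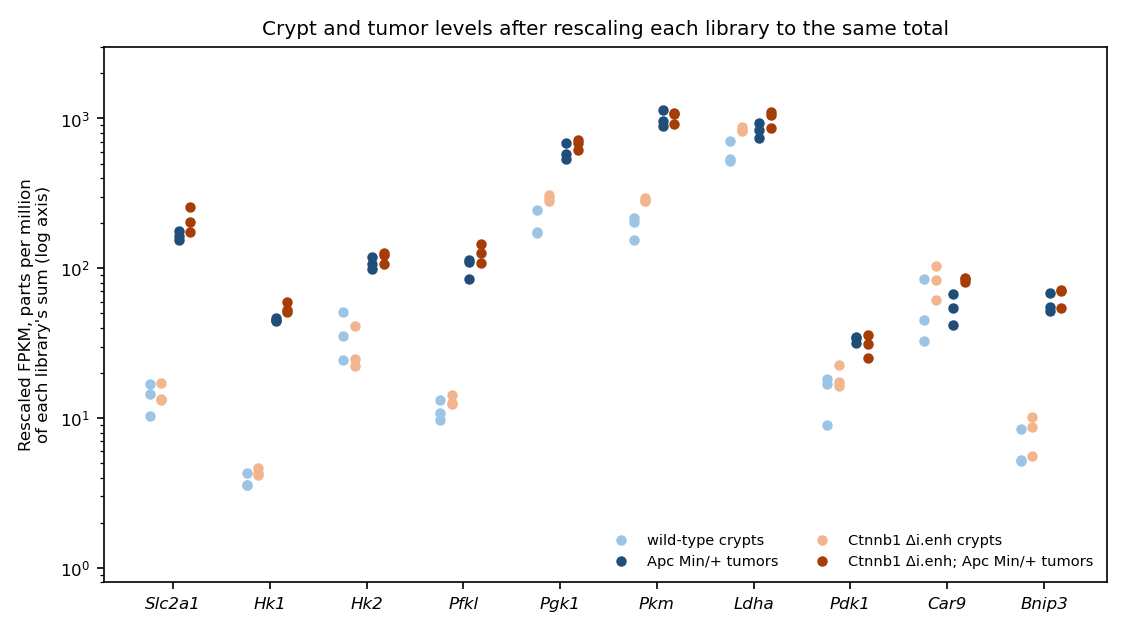
Points are levels in each library as ppm of its FPKM sum on a log axis, crypts in light and tumors in dark colors, blue for enhancer-intact and orange for enhancer-deleted mice. *Slc2a1*, *Hk1*, *Pfkl* and *Bnip3* lie between 8.01 and 14.4-fold higher in tumors by ratio of means, or between 5.74 and 11.0-fold with FPKM as deposited, whereas *Car9* overlaps at ratios of 0.999 and 1.01, or 0.662 and 0.777 with FPKM as deposited.

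Isoforms of several steps had different levels in wild-type crypts and Apc Min/+ tumors. *Hkdc1*, a hexokinase-like gene, had a rescaled mean of 78.2 ppm in crypts and 0.407 in tumors, 192-fold lower, where *Hk1* and *Hk2* were the higher hexokinases. *Aldoc*, an aldolase, had means of 4.12 ppm in crypts and 52.2 in tumors, a ratio of 12.7, and *Aldoa* lay above it in both tissues at 238 and 817 ppm. *Ldhb*, the lactate dehydrogenase subunit that favours pyruvate formation, had means of 0.611 and 64.5 ppm, a ratio of 106, and *Ldha* lay above it in both tissues at 588 and 842 ppm. The carriers that bring sugar in from the gut lumen or pass it to blood were lower in tumors: *Slc2a2* by 198-fold, *Slc2a5* by 63.5-fold and *Slc5a1* by 18.6-fold. *Slc16a3*, the lactate exporter MCT4, had a mean of 4.56 ppm in crypts and 113 in tumors, a ratio of 24.7. Of 30 glycolytic enzymes with at least 1 ppm in either group, 22 were higher and 2 lower in tumors by the same rule. Of 13 such carriers 8 were higher and 3 lower. Members make up 5 of those 22 enzymes and 1 of those 8 carriers, and 56.8% of all genes were higher and 5.56% lower by that rule. Between the knockout groups 16 enzymes were higher and 3 lower, and 7 carriers were higher and 3 lower, beside 46.5% of all genes higher and 6.38% lower. *Eno2* and *Slc2a4* were near 0 in crypts and had tumor means of 3.30 and 3.86 ppm. Enterocyte markers, led by *Fabp2* in crypts, summed to at most 39.4 FPKM in tumors, and the part of cell composition in these differences was not tested.

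By the same rule, which 56.8% of all genes met as higher and 5.56% as lower, the other lists were read in turn. For pyruvate entry 5 of 13 genes were higher and 0 lower in Apc Min/+ tumors, with ratios of 26.0 for *Pdk4*, 6.40 for *Pdp1* and 3.28 for *Pdp2*. Gluconeogenesis genes were split, with 2 of 8 higher and 4 lower. *Fbp1* was 8.14-fold, *Pck1* 4.32-fold and *Fbp2* 2.32-fold lower in tumors, *G6pc3* and *Pcx* were higher by ratios of 2.33 and 2.07, and *G6pc* was listed at 0 in all Apc Min/+ tumors. All 10 HIF factors and oxygen sensors were higher in the control tumors, and 8 of 10 in the comparison of the knockout groups, where 46.5% of all genes were. Between the control groups *Arnt2* was higher by 28.7-fold, *Egln3* by 8.98-fold and *Hif3a* by 8.09-fold. Hypoxia targets outside glycolysis were higher in 18 of 23 cases and lower in 0. *Ak4* had a ratio of 40.7, and *Lox* and *Stc2*, near 0 in crypts, had tumor means of 35.4 and 10.6 ppm. Carbonic anhydrases went both ways, with 4 of 10 higher and 3 lower. *Car2* was 14.2-fold higher, *Car1* and *Car11* were near 0 in crypts with tumor means of 200.1 and 1.505 ppm, and *Car8*, *Car4* and *Car13* were lower by 10.8, 4.51 and 3.82-fold. Between the knockout groups 2 of 13 pyruvate entry genes were higher and 1 lower, 1 of 8 gluconeogenesis genes higher and 4 lower, 16 of 23 hypoxia targets higher and 0 lower, and 4 of 10 carbonic anhydrases higher and 3 lower. Over all genes 46.5% were higher and 6.38% lower there. These counts use the rescaled levels, in which all genes were shifted up as given above. A gene enters them with a level of at least 1 in either tissue, so some, such as *Lox* and *Stc2*, enter through the tumors alone. In crypts 8 of 10 HIF factors and oxygen sensors and 16 of 23 hypoxia targets had a mean of at least 0.5 FPKM. In tumors all genes of both lists did.

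**Figure D5:**
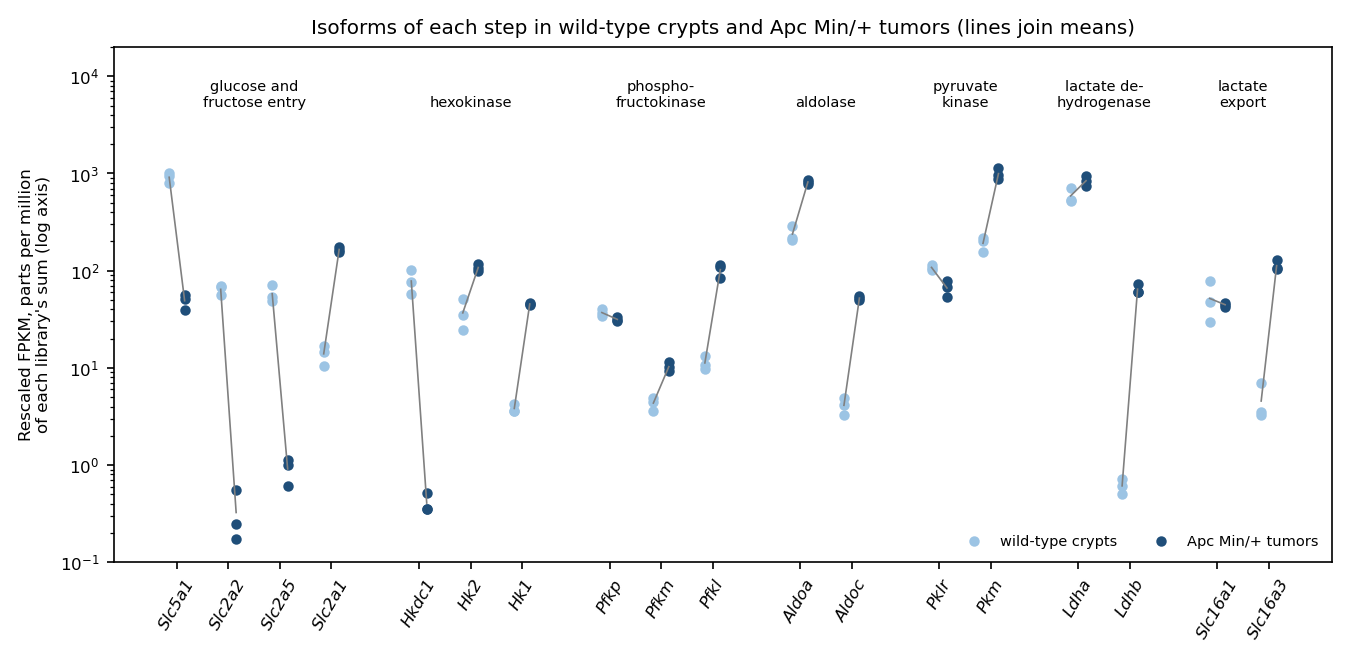
Points are levels in wild-type crypts (light) and Apc Min/+ tumors (dark) as ppm of each library's FPKM sum on a log axis, with lines joining means, for isoforms of 7 steps. *Hkdc1*, *Slc2a2*, *Slc2a5* and *Slc5a1* run down from crypt to tumor by 18.6-fold or more, and *Ldhb* and *Slc16a3* run up by 106 and 24.7-fold.

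Some levels carry a limit of their own. The strand setting of the counting was not stated, and *Car9* is overlapped by the antisense gene *Gm12454*, with a mean of 5.74 FPKM in crypts and 3.65 in tumors, while *Pkm* shares its strand and place with *AC160637.1* at 4.36 and 19.4 FPKM. Antisense genes also overlap *Slc2a1*, *Hk1*, *Hk2* and *Bnip3*, none above 2.78 FPKM on average. Processed copies can share reads with their parents, and *Ldha-ps2* had means of 2.13 and 1.82 FPKM, *Pgk1-rs7* 1.32 and 1.35. *Gapdh*, a central enzyme with many copies in the genome, read 2.33, 2.23 and 5.22 FPKM against 1.92, 1.83 and 3.60 in crypts and 6.31, 43.4 and 7.33 against 6.42, 32.8 and 53.1 in tumors, an erratic pattern that leaves its level uncertain. The labels do not say that replicates are separate animals, so the p-values measure the spread between samples, although the study's legends count mice.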

How the data were processed

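FPKM values per gene were deposited by the authors in separate crypt and tumor tables. The submitters' notes list cutadapt, HISAT2, Cufflinks 2.2.1, DESeq2 and mm10, whereas the study's methods name featureCounts for counting. Which tool counted the reads, and how it treated reads that fit several genes, is therefore uncertain, and strand setting and annotation are not stated. A gene length, deposited in bases, stands beside them. FPKM times length fell within 0.1 of whole multiples of a step for 100% of values above 0 in each library, which gave the fragments used for voom and for depth. Of 54409 gene IDs shared with GENCODE M21 (GRCm38), 53499 had the same start and end. Knockout was compared with control within each table by limma (version 3.58.1, run in R version 4.3.3). The fit used log2(FPKM + 0.5), a variance trend, a minimum mean of 0.5 FPKM, Benjamini-Hochberg adjustment and a threshold of 0.05. A run on simulated data called only part of the changed genes. Its log2 changes were larger than those of the members, so it does not show how the fit handles changes of their size. Exact permutation tests were two-sided (Python 3.11.15). Tumor and crypt levels were rescaled to the same sum per library. Named genes were all 10 members, and of each list up to 3 per direction with the smallest unadjusted p under 0.05, or the largest ratio across tissues, plus the most abundant gene. Other genes named were chosen after their values were seen. Members and lists were chosen with earlier results of these data known. *Aldoa* has more than 1 gene ID, and ENSMUSG00000030695 was used. Alternatives covered pseudocount, filter, scaling, variance trend, voom, a replicate block and leaving out libraries, and leaving out both control crypt libraries rich in stomach markers was chosen after the data were seen. Some genes that the naming rule takes are not reported here.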

Additional observations from a re-analysis of the deposited data

How the results depend on the processing

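Of 330 log2 differences of single members under the alternatives 13 turned sign, and the filters, the variance trend and the block leave the difference as it is by construction. *Slc2a1* in crypts turned to 0.078 with libraries rescaled to the same total and to 0.16 without both control crypts rich in stomach markers, and ranged from -0.17 to 0.12 when single libraries were left out. Without both of those controls, which leaves wild-type library 3 as the only control, *Hk1* turned to -0.23, *Pfkl* to -0.035 and *Bnip3* to -0.34 in crypts. *Hk1* turned to -0.016 in crypts when rescaled without the 50 highest genes and ranged from -0.10 to 0.16 without single libraries, *Bnip3* from -0.011 to 0.46. In tumors *Pkm* turned to -0.026 with quantile normalization, and *Pdk1* ranged from -0.14 to 0.055. The crypt member median of 0.22 was 0.35 after rescaling to the same total and 0.16 without the 50 highest genes, and 0.14 to 0.36 without single libraries. The tumor median of 0.32 ranged from 0.24 to 0.42 without single libraries and was 0.21 under both rescalings and 0.18 with quantile normalization. Genes called in crypts numbered from 0 to 3 without single libraries, the 3 without wild-type library 3, and 1 gene, *Mir3473e*, was called in tumors with no variance trend. With a replicate block 0 genes were called in each tissue and 732 and 1882 had an unadjusted p under 0.05 (limma). The voom fit was run without a block only and called 0. Deviations of same-numbered libraries correlated across genes at -0.12 to 0.05, and those of differently numbered libraries at -0.20 to 0.25. Members higher in Apc Min/+ tumors than in wild-type crypts numbered 5 with FPKM as deposited, 5 without the 50 highest genes of either table, and 7 to 8 without single libraries. In the knockout groups it was 7, 6 with FPKM as deposited, and 7 without each single library. The cause was not tested. With 3 libraries a group, intervals for most members span 0 in crypts, and depth does not resolve genes near 0 FPKM.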
